A study of Mus musculus with 54 samples.

Results

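Microglia that had taken up alpha-synuclein (aSyn, the protein that aggregates in Parkinson disease) and had then spent 300 min in co-culture with unexposed microglia were compared with untreated microglia. The comparison holds 10 of the 54 libraries of the study: the 4 libraries of donor cells sorted after 300 min, and the 6 untreated libraries, of which those sharing a replicate number were summed to give 4 untreated units. Donor and untreated units were paired by that number, called the experiment here, so n = 4 in each group throughout. All cells were primary microglia of neonatal C57BL/6 mice, grown for 7 to 10 days above an astrocyte layer and then shaken off it, and no genotype or age beyond neonatal is given. Cultures were at passage 3 in experiment 1, passage 1 in experiment 2 and passage 2 in experiments 3 and 4. Donors received 1 µM of aSyn carrying the fluorescent dye Atto 488 for 14 h. Acceptors were stained with a violet cell dye for 15 min, mixed with the donors, and separated from them again by flow cytometry. A further group of 4 libraries, labelled aSyn_Donor and given no co-culture time, received aSyn and is called aSyn-only here. Whether the untreated and aSyn-only cells also passed through the sorter is not stated in the sources used here, so sorting and co-culture cannot be told apart from the time since loading. The labels do not say whether the experiments came from separate animals or cultures, so the p-values below measure a spread between samples. That spread was estimated over all 52 units in the 14 groups of the study, not from these 4 pairs alone. The fit has no term for a response that differs between experiments.

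Microglia are the macrophages of the brain. They take up aggregated aSyn, degrade it in lysosomes and can pass it to neighbouring microglia through thin membrane bridges called tunnelling nanotubes. Aggregated aSyn engages surface pattern receptors and can drive the NF-kB pathway, in which transcription factors released from their inhibitors switch on genes of cytokines, chemokines and of the inhibitors themselves. Oxidative and protein-folding stress use other regulators: NRF2 for antioxidant genes, ATF4 for the amino acid and stress genes of the integrated stress response, and heat shock factor for chaperones.

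RNA was counted from the 3′ end of transcripts, and levels are given as CPM, the counts of a gene relative to its library's scaled total. The 10 libraries held between 9407503 and 14358778 counts (median 13036485.5) and detected 13450 to 14653 genes each. Experiment 4 stood apart in both groups compared. Its libraries carry facility numbers outside the run of the other experiments. In these 10 libraries the ribosomal RNA precursor Rn45s took 15.3 to 22.3% of its counts against 4.77 to 10.99% in experiments 1 to 3. No comparison could be tested within experiment 4 alone. The microglia markers Aif1, Csf1r, Cx3cr1, P2ry12, Tmem119, C1qa and Itgam summed to 2632 to 6050 CPM in untreated units. In donors at 300 min their sum was 2032 to 4809 CPM. P2ry12 and Tmem119 were the lowest of them, averaging 8.07 and 2.73 CPM in untreated units and 7.19 and 6.55 CPM in donors. The 4 markers of border macrophages, Mrc1, Lyve1, Cd163 and Pf4, summed to 193.5 to 292.5 CPM in untreated units and 150 to 328.1 CPM in donors. The share of other macrophages in the cultures was not tested. In bulk RNA, fewer cells of one kind and less RNA per cell cannot be told apart.

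Donors at 300 min still differed widely from untreated cells. Cytokine, chemokine, antioxidant and stress genes were among the genes that rose, and DNA replication and mitosis genes were among those that fell. The edgeR quasi-likelihood test, with the experiment as a block, called 1628 of 13169 genes (12.4%), a call being an adjusted p-value (Benjamini-Hochberg) below 0.05. Of these, 746 were higher in donors (5.66%) and 882 were lower (6.7%), and 215 of the higher and 418 of the lower genes differed more than 2-fold. The median log2 fold change of all genes was -0.04. Without the block the test called 114 genes, 81 higher and 33 lower, all among the 1628, and with only the untreated, aSyn-only and 300 min groups in the fit it called 349. Without experiment 3 or without experiment 4, 568 and 725 of the 1628 genes were called.

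The gene that separated the groups most clearly was Adgre5, which encodes the adhesion receptor CD97 (GRCm38 chromosome 8, 83723251 to 83741326). Its level was 3.33, 2.66, 3.77 and 2.41 CPM in the untreated units of experiments 1 to 4, in that order, and 40.5, 37.5, 59.3 and 28.6 CPM in the donors at 300 min. Every donor library lay above every untreated unit by a wide margin, and the log2 fold change was 3.76 (SE 0.19, adjusted edgeR p 1.88e-18). The gene lies across Ddx39 on the opposite strand, and strand use in the counting is not given in the sources used here, so reads of such partners cannot be told apart. Ddx39, an RNA helicase gene, had a log2 fold change of 0.31 (adjusted edgeR p 0.208) and was not called. Tgm2, which encodes the protein-crosslinking enzyme transglutaminase 2, was at 1.21, 5.10, 11.5 and 5.81 CPM in untreated units and 58.1, 62.7, 97.9 and 76.8 CPM in donors, again without overlap (log2 fold change 3.84, SE 0.38, adjusted edgeR p 4.93e-09). Adgre5 and Tgm2 were called in all 11 alternative fits, the fit without the block included. Other genes described below that lie across an annotated gene on the opposite strand are Acp5, Bcl2a1d, Ccna2, Ccnd1, Ch25h, Cox5a, Csf1r, Ctsl, Ctsz, Cx3cr1, Dgkh, Dusp1, Exoc4, Fbxo32, Herpud1, Hk2, Hspa1a, Il1a, Il1b, Itga4, Jun, Lamp1, Lhfpl2, Lrp1, Lsp1, Mbp, Mcm7, Mki67, Mog, Mtmr10, Mvd, Nr1h3, Olig1, P2ry12, P2ry13, Rala, Samd8, Slc7a11, Slco2b1, Sqstm1, Tax1bp1, Tgm2, Tnfaip2, Tnip1 and Wee1. Units of the groups did not overlap in 5.32% of all genes tested, and 27.2% of genes moved in 1 direction in all 4 experiments.

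**Figure D1:**
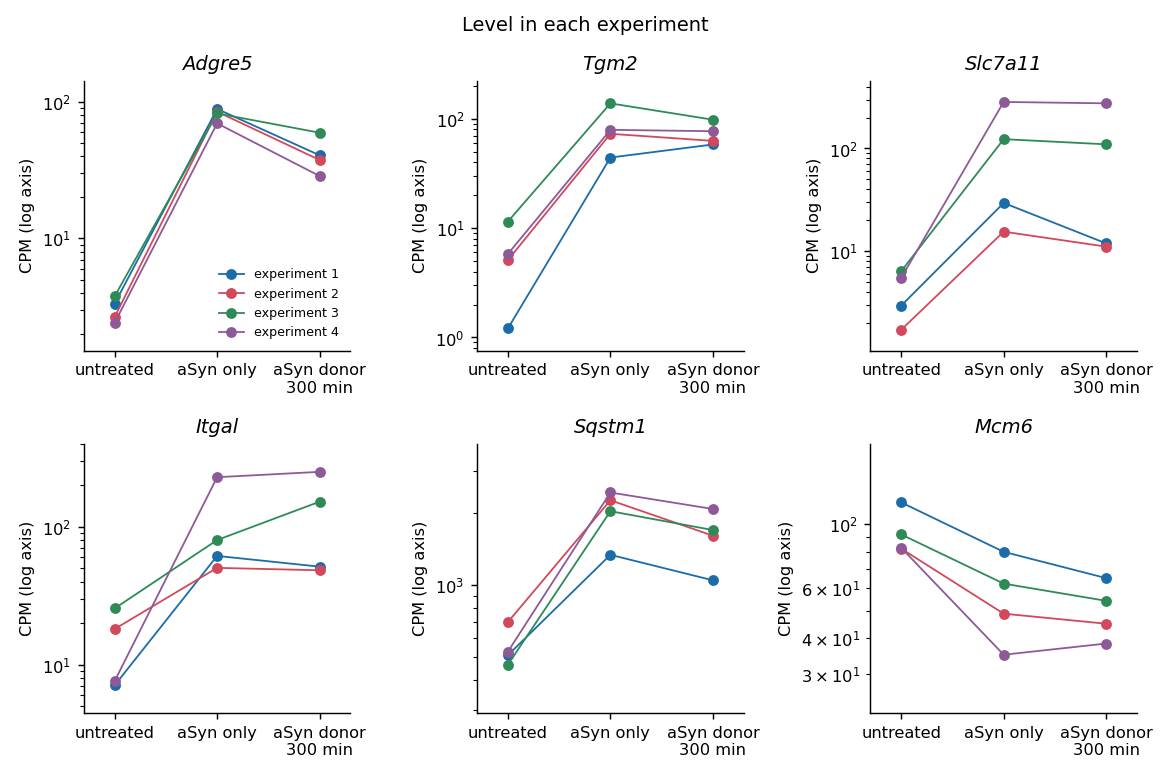
Level of 6 genes in CPM (log axis) in each of the 4 experiments, for untreated units, aSyn-only libraries and donors at 300 min, with 1 point per unit. Adgre5, Tgm2, Slc7a11, Itgal and Sqstm1 lie higher in donors than in untreated units in all 4 experiments and Mcm6 lies lower, and Adgre5 in donors at 300 min lies between the other groups.

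Some genes of inflammatory mediators and of enzymes that make such mediators remained high, most of all in experiment 4. In the list of cytokine and acute-phase genes, 10 of 21 tested were higher and 0 lower, with a median log2 fold change of 1.79, so 47.6% of the list was called against 12.4% of all genes. The median difference of the list between paired units was 0.78, 0, 0.63 and 4.47 in experiments 1 to 4. Of the 10 called genes, 7 rose in all 4 pairs. Il1b, which encodes the cytokine interleukin 1 beta, was at 14.03, 65.3, 13.6 and 23.3 CPM in untreated units and 32.2, 151, 232.1 and 2521 CPM in donors (log2 fold change 2.87, SE 0.61, adjusted edgeR p 0.00140). It was higher in donors in each experiment, but the groups overlapped, because the untreated unit of experiment 2 lay above the donor library of experiment 1. Il1rn, the antagonist of the same receptor, was at 25.4, 154, 57.6 and 51.0 CPM in untreated units and 180.3, 378, 258.9 and 3131 CPM in donors, without overlap (log2 fold change 2.84, adjusted edgeR p 4.51e-04, and 1.88 without experiment 4). Ptgs2, the inducible cyclooxygenase that starts prostaglandin synthesis, rose by 3.23 on the log2 scale (adjusted edgeR p 7.64e-04), and its untreated and donor units did not overlap. Without experiment 4 the log2 fold changes of Il1b and Ptgs2 were 1.97 and 2.22, and without experiment 2 those of Il1b, Il1rn and Ptgs2 were 4.01, 3.74 and 3.85.

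The largest rises of this kind came mainly from experiment 4. Lcn2, which encodes the iron-trapping acute-phase protein lipocalin 2, was at 0, 0.0872, 0.600 and 1.21 CPM in untreated units and 0.957, 0.988, 12.997 and 565 CPM in donors. Its log2 fold change of 8.13 (SE 0.80, adjusted edgeR p 3.75e-09) became 4.27 without experiment 4, where it was still called. Nos2, the inducible nitric oxide synthase, was at 0.0736, 2.66, 4.01 and 62.5 CPM in donors and at most 0.514 CPM in untreated units, and its log2 fold change of 5.59 became 2.82 without experiment 4. Ptges, the inducible prostaglandin E synthase, had a log2 fold change of 4.93, and 2.56 without experiment 4. Il1a, the sister cytokine of Il1b, was called with all experiments (log2 fold change 5.92, adjusted edgeR p 7.91e-05) but not without experiment 4 (1.55, adjusted edgeR p 0.416). Il6, the cytokine interleukin 6, was listed at 0 in the donors of experiments 1 to 3 and at 16.6 CPM in experiment 4. Tnf, the cytokine tumour necrosis factor, was at 38.1, 41.6, 69.8 and 29.7 CPM in untreated units and 14.7, 26.98, 27.5 and 52.7 CPM in donors and was not called (log2 fold change -0.65, adjusted edgeR p 0.188). Without experiment 4 Tnf was called lower (log2 fold change -1.13, adjusted edgeR p 0.0194). The log2 fold changes of Il1a and Nos2 were 6.83 and 6.90 without experiment 2, and those of Nos2 and Ptges were 6.70 and 5.58 without experiment 3. Without the block only 1 gene of the list was called, and with only 3 groups in the fit 4 were.

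Chemokine genes moved in different directions. Of 21 tested, 8 were higher, 1 was lower and the median log2 fold change was 0.84, with 1 gene called without the block. The share called was 42.9%, beside 12.4% of all genes. The median difference between paired units was 1.14, 0, 0.27 and 3.31 in experiments 1 to 4. Cxcl3, a neutrophil attractant, was at 0.706, 0.654, 0 and 0.226 CPM in untreated units and 1.91, 3.7998, 6.41 and 45.4 CPM in donors, a log2 fold change of 4.59 (SE 0.77, adjusted edgeR p 8.88e-05) that became 3.04 without experiment 4. Cxcl9, an interferon-induced attractant of T cells, was at 0.908, 6.45, 3.69 and 0.716 CPM in untreated units and 13.4, 29.8, 13.1 and 261.5 CPM in donors (log2 fold change 3.53, adjusted edgeR p 0.00132). For both genes the groups did not overlap. Cxcl9 was not called with only 3 groups in the fit (adjusted edgeR p 0.0713). Ccl8, a monocyte attractant, rose by 3.15 on the log2 scale (adjusted edgeR p 1.64e-04), and by 4.96 without experiment 2, whose untreated unit was far above the others at 42.5 CPM. Without experiment 4 the log2 fold changes of Cxcl9 and Ccl8 were 2.40 and 2.50. Without experiment 2 those of Cxcl9 and Cxcl3 were 4.84 and 6.03, and that of Cxcl3 was 5.38 without experiment 1. Ccl24, an attractant of eosinophils, rose by 2.29 (adjusted edgeR p 9.42e-04). Ccl4, the attractant MIP-1 beta, was the gene that fell: it was at 362, 720.2, 590.2 and 239.4 CPM in untreated units and 228.02, 342, 166 and 101 CPM in donors (log2 fold change -1.29, SE 0.29, adjusted edgeR p 0.00242). It was lower in donors in each experiment, although the donors of experiment 2 lay above the untreated unit of experiment 4.

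Among subunits, inhibitors and targets of NF-kB, 12 of 26 tested genes were higher (46.2%) and 0 lower, with a median log2 fold change of 0.64. Without the block 3 of them were called, and with only 3 groups in the fit 4 were. Tnip1, which encodes an inhibitor that works with the ubiquitin-editing enzyme A20, was at 29.8, 48.6, 42.3 and 43.9 CPM in untreated units and 50.3, 55.2, 75.7 and 149.9 CPM in donors. All donors lay above all untreated units, with the highest donor level in experiment 4 (log2 fold change 0.89, SE 0.17, adjusted edgeR p 4.71e-04, and 0.58 without experiment 4). Bcl2a1a, a member of the A1 family of survival proteins, was at 1.41, 8.85, 7.20 and 1.43 CPM in untreated units and 23.5, 42.6, 51.0 and 168 CPM in donors, without overlap (log2 fold change 3.52, adjusted edgeR p 4.93e-06). Its log2 fold change was 4.47 without experiment 2 and 2.74 without experiment 4. Bcl2a1d and Bcl2a1b were called too, at 1.59 and 0.79 on the log2 scale. These A1 genes are near-identical copies, so how reads were divided among them is uncertain. The feedback inhibitors Nfkbia and Tnfaip3, the latter encoding A20, were not called, at 0.47 (adjusted edgeR p 0.118) and 0.37 (adjusted edgeR p 0.459).

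Of the 12 NF-kB genes that rose, 3 hold the NF-kB letters GGGANTTCC in the 250 bases before their RefSeq start, on either strand, against 1.417% of all 27025 mouse promoters in that table and 1.862% of those of genes tested. Tnip1 and the chemokine Cxcl9 are shown as examples whose levels rose without overlap. H2-M2, described below, also rose without overlap and holds 2 matches. The letters were also found before 2 of the 18 mitosis genes that fell and have a promoter in the table, and before 1 of 10 stress genes that rose. Tnfaip3, which was not called, holds them too, and the share among uncalled NF-kB genes was not counted. The RefSeq sequences (GRCm38.p6) run 5′ to 3′ toward the gene, with the match in capitals. In Tnip1 the matches on both strands overlap.
Tnip1 (chr11:54962941-54963190, minus strand): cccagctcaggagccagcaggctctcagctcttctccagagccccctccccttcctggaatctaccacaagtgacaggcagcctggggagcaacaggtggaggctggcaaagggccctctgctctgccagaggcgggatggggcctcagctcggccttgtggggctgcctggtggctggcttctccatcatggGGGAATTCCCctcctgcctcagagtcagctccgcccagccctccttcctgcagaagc
Cxcl9 (chr5:92328080-92328329, minus strand): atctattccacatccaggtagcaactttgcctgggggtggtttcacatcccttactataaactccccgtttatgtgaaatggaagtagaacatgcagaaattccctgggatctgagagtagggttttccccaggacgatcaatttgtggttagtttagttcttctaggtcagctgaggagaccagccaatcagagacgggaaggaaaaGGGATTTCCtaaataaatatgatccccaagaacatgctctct

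Some receptors for bacterial peptides and for debris were also higher. Of 13 chemoattractant receptors tested, 3 were higher and 1 lower (30.8% called). Of 23 pattern, scavenger and Fc receptors 5 were higher and 1 lower (26.1%), beside 12.4% of all genes. Fpr1, a receptor for formyl peptides, was at 1.01, 6.32, 19.4 and 1.36 CPM in untreated units and 11.3, 29.0, 112 and 204 CPM in donors (log2 fold change 3.25, SE 0.57, adjusted edgeR p 1.73e-04). It rose within every experiment, with a high untreated unit in experiment 3 that overlapped the lowest donor. Fpr2, its relative, rose by 2.74 (adjusted edgeR p 0.00148). Ccr1, a receptor for CC chemokines, was at 1.51, 1.48, 1.89 and 1.81 CPM in untreated units and 4.86, 3.12, 7.66 and 27.7 CPM in donors, without overlap (log2 fold change 2.31, adjusted edgeR p 9.57e-05). Clec4e, which encodes Mincle, a lectin that senses dead cells and glycolipids, rose by 3.41 on the log2 scale (adjusted edgeR p 9.49e-05). The scavenger receptor gene Marco was at 2.62, 0.0436, 19.1 and 1.70 CPM in untreated units and 14.3, 9.42, 263 and 134 CPM in donors (log2 fold change 4.48, SE 0.52, adjusted edgeR p 1.05e-07). Marco also varied widely between experiments: the untreated unit of experiment 3 lay above the donors of experiments 1 and 2. Without experiment 4 the log2 fold changes of Fpr1, Fpr2, Ccr1, Clec4e and Marco were 2.43, 1.91, 1.57, 2.56 and 3.79, and without experiment 2 those of Fpr1, Fpr2 and Clec4e were 3.85, 3.94 and 4.01.

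Tlr1, a Toll-like receptor that pairs with TLR2, rose by 1.52 (adjusted edgeR p 0.00319). Lrp1, a large endocytic receptor known to bind aSyn and tau, fell by 0.75 on the log2 scale (adjusted edgeR p 6.47e-04), from 634, 307, 549.6 and 485 CPM to 430.1, 282, 298 and 185 CPM. Lrp1 was lower in donors in each experiment, and the groups overlapped because untreated cells of experiment 2 already had a low level. C5ar1, the receptor for complement C5a, had a log2 fold change of -0.58 (adjusted edgeR p 0.0126) and was not called without experiment 2 (adjusted edgeR p 0.0698) or without experiment 3 (adjusted edgeR p 0.0836).

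Of 18 integrins, adhesion molecules and adhesion receptors, 6 were higher and 2 lower, and without experiment 3 the counts were 3 and 0. With all experiments the share called was 44.4%, beside 12.4% of all genes. Itgal, the alpha chain of the integrin LFA-1, which binds ICAM-1 on other cells, was at 7.06, 18.1, 25.5 and 7.58 CPM in untreated units and 51.4, 48.3, 152 and 250.6 CPM in donors. The groups did not overlap and the log2 fold change was 2.78 (SE 0.42, adjusted edgeR p 2.20e-05). H2-M2, a non-classical class I histocompatibility gene that was in none of the lists, was at 2.32, 3.88, 22.8 and 2.19 CPM in untreated units and 25.7, 39.9 and 218 CPM in donors of experiments 1 to 3, with a still higher level in experiment 4 (log2 fold change 4.06, adjusted edgeR p 3.82e-07). All donors lay above all untreated units, and donors of experiments 3 and 4 were far above those of experiments 1 and 2. Itgal and H2-M2 had log2 fold changes of 2.15 and 3.33 without experiment 4, and Itgal had 3.46 without experiment 2.

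Antioxidant genes were higher in part. Of 29 NRF2-linked genes, 12 were higher and 1 lower (44.8% called), with a median log2 fold change of 0.39. The median difference of the list between paired units was -0.23, 0.57, 0.75 and 0.62 in experiments 1 to 4. Of the 12 higher genes, 6 rose in all 4 pairs. The counts were 4 higher and 1 lower without experiment 3, 5 higher and 2 lower without experiment 4, and 1 higher without the block. Slc7a11, the cystine importer that feeds glutathione synthesis, was at 2.93, 1.70, 6.34 and 5.47 CPM in untreated units and 11.8, 11.02, 109.8 and 276 CPM in donors. The groups did not overlap, and the donors of experiments 3 and 4 were far above those of experiments 1 and 2 (log2 fold change 3.89, SE 0.42, adjusted edgeR p 2.90e-08, and 3.14 without experiment 4). Sqstm1, which encodes p62, the receptor that delivers ubiquitin-tagged cargo to autophagosomes and also sets NRF2 free, was at 507, 698, 463 and 525 CPM in untreated units and 1044, 1604, 1695 and 2076 CPM in donors. Again no donor overlapped an untreated unit (log2 fold change 1.48, SE 0.16, adjusted edgeR p 4.13e-08), and Sqstm1 was called in all 11 alternative fits. Fth1, the heavy chain of the iron store ferritin, rose by 0.92 (adjusted edgeR p 2.64e-05). Hmox1, the heme-degrading enzyme often read as an NRF2 target, was at 211, 61.0, 210.3 and 869 CPM in untreated units and 110.4, 110.3, 208 and 1230.3 CPM in donors and was not called (log2 fold change 0.05, adjusted edgeR p 0.913).

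Genes of the endoplasmic reticulum and of the integrated stress response were higher, 10 of 15 tested (66.7%) with 0 lower and a median log2 fold change of 0.64. Without experiment 3 there were 6, without experiment 4 there were 4, and without the block 1. Trib3, a pseudokinase induced by ATF4, was at 6.26, 24.9, 4.97 and 9.76 CPM in untreated units and 29.7, 58.5, 29.7 and 68.1 CPM in donors, without overlap (log2 fold change 2.13, SE 0.30, adjusted edgeR p 5.12e-06). Asns, asparagine synthetase, was at 47.2, 69.1, 32.9 and 34.2 CPM in untreated units and 129.5, 112, 70.7 and 72.2 CPM in donors, also without overlap (log2 fold change 1.08, adjusted edgeR p 9.76e-04). Ddit3, which encodes the stress factor CHOP, rose by 1.58 (adjusted edgeR p 0.00128), and Herpud1, part of the machinery that clears misfolded proteins from the endoplasmic reticulum, by 0.84 (adjusted edgeR p 0.00172). Of 14 heat shock genes, 2 were higher and 1 lower (21.4% called, beside 12.4% of all genes). Hspa1b, an inducible Hsp70 chaperone with a near-identical copy in Hspa1a, was at 2.62, 4.75, 0.943 and 1.96 CPM in untreated units and 7.06, 10.1, 20.7 and 31.2 CPM in donors, without overlap (log2 fold change 2.55, adjusted edgeR p 8.30e-04, and 3.33 without experiment 2).

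The letters TGATGNAA, which ATF4 and C/EBP factors bind as a pair, occur in the promoter windows of 2 of the 10 stress genes that rose, against 3.53% of all promoters and 1.967% of those of genes tested. They also occur at 2 places before Slc7a11 and before 1 of the 12 NF-kB genes that rose. Of the 27 genes lower than in aSyn-only cells that have a promoter in the table, 3 hold them. The share among uncalled stress genes was not counted. Slc7a11 and Asns, both of which serve amino acid supply, are shown with the matches in capitals.
Slc7a11 (chr3:50443614-50443863, minus strand): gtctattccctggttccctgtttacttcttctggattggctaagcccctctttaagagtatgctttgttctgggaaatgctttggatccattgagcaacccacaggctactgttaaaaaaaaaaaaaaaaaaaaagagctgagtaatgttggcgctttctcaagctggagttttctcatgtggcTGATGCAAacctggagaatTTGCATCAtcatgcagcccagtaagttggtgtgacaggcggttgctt
Asns (chr6:7693210-7693459, minus strand): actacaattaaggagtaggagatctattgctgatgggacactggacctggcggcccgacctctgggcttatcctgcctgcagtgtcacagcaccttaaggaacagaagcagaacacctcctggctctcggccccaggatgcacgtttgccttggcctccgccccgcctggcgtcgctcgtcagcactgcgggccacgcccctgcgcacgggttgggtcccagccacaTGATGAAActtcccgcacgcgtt

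Most genes of the degradation machinery itself were not called. Of 23 autophagy genes, 5 were higher and 1 lower, at a median log2 fold change of 0.04, and of 27 lysosome genes 3 were higher and 0 lower, at a median of -0.05. The share called was thus 26.1% of the autophagy list and 11.1% of the lysosome list, the latter near the 12.4% of all genes. Atg5, needed to build the autophagosome membrane, rose by 0.52 (adjusted edgeR p 0.00265). The lysosomal membrane gene Lamp1 and the lysosome regulator Tfeb were not called, at -0.04 (adjusted edgeR p 0.837) and -0.05 (adjusted edgeR p 0.891).

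Genes of DNA replication and cell division fell. Of 25 S-phase genes, 17 were lower (68%) and 0 higher, with a median log2 fold change of -0.95, and of 23 mitosis genes 20 were lower (87%) and 0 higher, with a median of -1.74. Mcm6, a subunit of the replicative DNA helicase, was at 119, 82.1, 92.0 and 82.6 CPM in untreated units and 64.8, 45.0, 54.0 and 38.4 CPM in donors. The groups did not overlap, and the fall was of similar size in all 4 experiments (log2 fold change -0.91, SE 0.09, adjusted edgeR p 5.36e-09). Mcm2, another helicase subunit, was at 27.4, 9.55, 24.2 and 23.9 CPM in untreated units and 9.12, 5.17, 8.55 and 7.44 CPM in donors (log2 fold change -1.45, adjusted edgeR p 3.64e-06). The subunits Mcm3 and Mcm7 fell too, by 0.95 and 1.09 on the log2 scale (adjusted edgeR p 3.16e-06 and 7.89e-06). Without the block, 8 of the S-phase genes were still called, Mcm6, Mcm2 and Mcm3 among them.

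The median difference of the mitosis genes between paired units was -0.94, -0.80, -1.43 and -2.85 in experiments 1 to 4, beside -0.96, -0.36, -1.10 and -1.47 for the S-phase genes, and the difference between the lists was not tested. Ccnb2, a mitotic cyclin, was at 28.2, 6.72, 12.1 and 15.5 CPM in untreated units and 9.86, 0.608, 2.76 and 1.96 CPM in donors, lower in each experiment with overlap between experiments (log2 fold change -2.40, SE 0.46, adjusted edgeR p 4.55e-04). Bub1, a kinase of the spindle checkpoint, was at 14.2, 3.62, 6.51 and 6.60 CPM in untreated units and 3.24, 0.684, 2.23 and 0.783 CPM in donors, without overlap (log2 fold change -2.25, adjusted edgeR p 4.32e-04). Mki67, the proliferation marker Ki-67, was at 71.5, 10.6, 34.2 and 53.4 CPM in untreated units and 30.2, 6.84, 12.02 and 6.34 CPM in donors (log2 fold change -1.74, adjusted edgeR p 0.00126). Untreated cells of experiment 2 already had low levels of all 3 genes. Ccna2, the cyclin of S phase and G2, fell by 2.02 (adjusted edgeR p 1.48e-06), but it lies across Exosc9 on the opposite strand. Kif23, a motor of cell separation, fell by 1.22 (adjusted edgeR p 4.80e-04). Without experiment 3 the test called 13 of the mitosis genes, without experiment 4 it called 14, with only 3 groups in the fit 7, and without the block 0, where the adjusted edgeR p of Ccnb2 was 0.331.

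The letters TTTGAA, the core of the cell cycle homology region of G2 and mitosis promoters, occur before 7 of the 18 mitosis genes that fell and have a promoter in the table, against 16.274% of all promoters and 10.758% of those of genes tested. Because 20 of the 23 genes of the list fell, the share describes the list and cannot be tied to the fall. Uncalled mitosis genes were not counted. The same letters occur before 3 of the 12 NF-kB genes that rose. These are the near-identical copies Bcl2a1a, Bcl2a1b and Bcl2a1d, which share the stretch around the match. Ccnb2 and Mki67 are shown, with 1 and 2 matches in capitals.
Ccnb2 (chr9:70421555-70421804, minus strand): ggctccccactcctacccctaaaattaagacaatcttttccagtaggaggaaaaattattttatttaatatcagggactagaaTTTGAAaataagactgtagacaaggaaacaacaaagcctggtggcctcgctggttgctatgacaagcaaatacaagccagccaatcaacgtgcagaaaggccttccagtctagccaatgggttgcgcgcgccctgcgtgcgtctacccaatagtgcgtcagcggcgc
Mki67 (chr7:135716380-135716629, minus strand): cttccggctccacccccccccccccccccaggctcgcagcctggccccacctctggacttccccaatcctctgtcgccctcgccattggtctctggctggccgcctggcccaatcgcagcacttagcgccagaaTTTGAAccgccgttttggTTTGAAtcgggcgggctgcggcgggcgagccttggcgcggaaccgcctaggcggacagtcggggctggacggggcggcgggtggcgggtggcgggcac
The other letters searched on both strands were TGACNNNGC (antioxidant response), TTTGGCGC (E2F), GTAAACA (forkhead), TGACGTCA (cyclic AMP response) and TGACTCA (AP-1, which can lie inside an antioxidant response match). A match describes the letters only.

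The largest falls included further growth-linked genes. Ccnd1, the cyclin that carries cells from G1 into S phase, was at 313, 349, 250.9 and 601 CPM in untreated units and 129, 107, 73.1 and 24.2 CPM in donors, without overlap (log2 fold change -2.46, SE 0.53, adjusted edgeR p 0.00172, and -1.59 without experiment 4). Nanos1, an RNA-binding translational repressor, was at 179, 39.3, 85.8 and 108 CPM in untreated units and 28.8, 15.4, 6.14 and 1.49 CPM in donors, also without overlap (log2 fold change -3.19, SE 0.49, adjusted edgeR p 2.64e-05). Nanos1 was called in all 11 alternative fits. Rrm2, the subunit that limits deoxynucleotide synthesis, fell by 2.67 (adjusted edgeR p 0.00189). Lsp1, an actin-binding protein of leukocytes, fell by 2.87 (adjusted edgeR p 3.83e-04). Zfp618 and Asb10 fell by 2.81 and 2.95 (adjusted edgeR p 3.70e-05 and 0.00145). The transporter gene Slco2b1 had a log2 fold change of -3.04 (adjusted edgeR p 0.0114), which was -1.86 without experiment 4 and -3.87 without experiment 1, and it was not called without experiment 2 (adjusted edgeR p 0.0654) or experiment 3 (adjusted edgeR p 0.0953).

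Genes of microglial identity showed no common direction. Of 18 homeostatic microglia genes, 2 were higher and 1 lower, and of 21 disease-associated microglia genes 3 were higher and 1 lower. The shares called, 16.7% and 19%, are near the 12.4% of all genes. Before adjustment, 11 and 10 of them had an edgeR p-value under 0.05, beside 3574 of all 13169 genes. The median log2 fold changes were -0.29 and -0.16. Between paired units the homeostatic median was 0.18, -0.30, -0.25 and -0.67 in experiments 1 to 4. Cx3cr1, the fractalkine receptor, was at 485, 191, 329.6 and 349 CPM in untreated units and 691, 243.04, 187 and 33.4 CPM in donors (log2 fold change -1.20, adjusted edgeR p 0.0775). It was higher in donors of experiments 1 and 2 and lower in those of experiments 3 and 4, and was not called. Without experiment 4 its log2 fold change was -0.04 (adjusted edgeR p 0.962). Tmem119, a surface protein that marks microglia, was at 2.32, 1.003, 4.63 and 2.98 CPM in untreated units and 4.78, 5.32, 10.7 and 5.41 CPM in donors (log2 fold change 1.23, adjusted edgeR p 0.00472). It was higher in donors in each experiment, without overlap, but was not called without experiment 2 (adjusted edgeR p 0.0721) or experiment 3 (adjusted edgeR p 0.0626). P2ry12, Csf1r, Apoe and Trem2 were not called, at log2 fold changes of -0.24, 0.04, -0.57 and -1.43 (adjusted edgeR p 0.546, 0.919, 0.157 and 0.0850). Trem2 was called lower without experiment 4 (log2 fold change -0.71, adjusted edgeR p 2.58e-05). Fabp5, a fatty acid carrier, was the clearest of the disease-associated genes: it rose by 0.86 (adjusted edgeR p 4.52e-07), from 596, 1093, 901 and 905 CPM to 1131, 1457, 2106 and 1762 CPM, without overlap.

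Of 9 genes tested that are known from osteoclasts, the bone-resorbing relatives of microglia, 3 were higher and 1 lower. The share called was 44.4%, beside 12.4% of all genes. Acp5, the tartrate-resistant acid phosphatase, was at 0, 0.698, 0.771 and 1.36 CPM in untreated units and 2.65, 8.06, 5.79 and 7.21 CPM in donors (log2 fold change 2.98, SE 0.39, adjusted edgeR p 1.28e-06). Ocstamp, a membrane protein of cell fusion, had at most 3 counts in an untreated unit and 4.86, 2.58, 3.83 and 2.74 CPM in donors (adjusted edgeR p 5.42e-05). Set against 3 counts in the shallowest unit, 0.303 CPM, the mean of the donors was at least 11.6-fold higher and that of experiment 2, the lowest, at least 8.53-fold higher. Such bounds cover counting error only. Mmp9, the secreted gelatinase, rose by 2.54 (adjusted edgeR p 8.13e-06), from an untreated level of 5.15, 2.83, 62.5 and 7.69 CPM. For Acp5 and Ocstamp the groups did not overlap, and both were called in all 11 alternative fits.

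Of 31 interferon-stimulated genes 0 were called by edgeR or by DESeq2, and 6 had an unadjusted p-value under 0.05 in edgeR. Their median log2 fold change was 0.55. Their median difference between paired units was 0.99 in experiment 1, -0.84 in experiment 2, 0.40 in experiment 3 and 2.29 in experiment 4, and without experiment 2 the test called 13 as higher. Isg15, a ubiquitin-like protein induced by interferon, was at 125, 1246, 212 and 69.97 CPM in untreated units and 248.5, 584, 331 and 1565 CPM in donors, so that the untreated unit of experiment 2 had the second highest value of all. Among other lists, 1 of 14 antigen presentation genes, 3 of 29 respiratory chain genes, 3 of 21 glycolysis genes, 1 of 19 cholesterol synthesis genes and 2 of 20 nanotube and organelle transport genes were higher. Of the last list and of the glycolysis list, 1 gene each was lower. The shares of these lists called in either direction, 5.26 to 19%, stand beside the 12.4% of all genes. Nr1h3, the oxysterol receptor LXR alpha, was the 1 called of 10 genes of that pathway (10%). It was at 4.24, 9.77, 12.9 and 4.11 CPM in untreated units and 30.2, 26.1, 30.8 and 35.2 CPM in donors (log2 fold change 2.03, SE 0.36, adjusted edgeR p 1.64e-04). Cox5a, a subunit of cytochrome oxidase, rose by 0.45 (adjusted edgeR p 1.87e-04). Of 12 Parkinson disease genes 0 were called by edgeR, with 2 at an unadjusted p-value under 0.05, and DESeq2 called 1 lower. Lrrk2, a kinase gene of familial disease, had a log2 fold change of -0.25 (adjusted edgeR p 0.843).

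Further genes of these lists were called with all 4 experiments but lost the call when at least 1 of them was left out, so they are given by value only. Higher values of this kind were 1.55 for Cst7, an inhibitor of cathepsins, 0.45 for Ctsl and 0.58 for Ctsz, which are lysosomal cathepsins, and 0.43 for Npc2, a lysosomal cholesterol carrier. The NRF2 target Osgin1 had 1.17, the chaperone Hspa1a 1.70, the macrophage receptor Adgre1 0.54, the integrin chain Itga4 0.67 and the autophagy receptor Tax1bp1 0.37. In metabolism, Hk2, Pgk1 and Pkm, enzymes of glycolysis, had 0.78, 0.61 and 0.39, the sterol gene Mvd 0.85, and the respiratory chain genes Uqcrq and Sdhb 0.28 and 0.29. Tnfaip2, which encodes the nanotube-forming protein M-Sec, had 0.97 and Rala, a GTPase that acts with it, 0.38. Lower values were -1.63 for the matrix protein Sparc, -1.13 for the sterol enzyme Ch25h, -1.71 for the integrin chain Itgb3, -0.59 for the autophagy kinase Ulk2, -0.73 for the mitochondrial kinase Pdk1, -0.40 for the exocyst subunit Exoc4 and -2.40 for the chaperone Hspb8. Myc, a growth-promoting transcription factor, had -1.77, and the early genes Ier3 and Klf4 had 1.45 and 1.21, the purinergic receptor P2ry13 1.05 and the class I gene H2-D1 0.52. Without experiment 4 the values of Cst7, Itgb3 and Hspb8 were 0.95, -0.81 and -3.42.

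**Figure D2:**
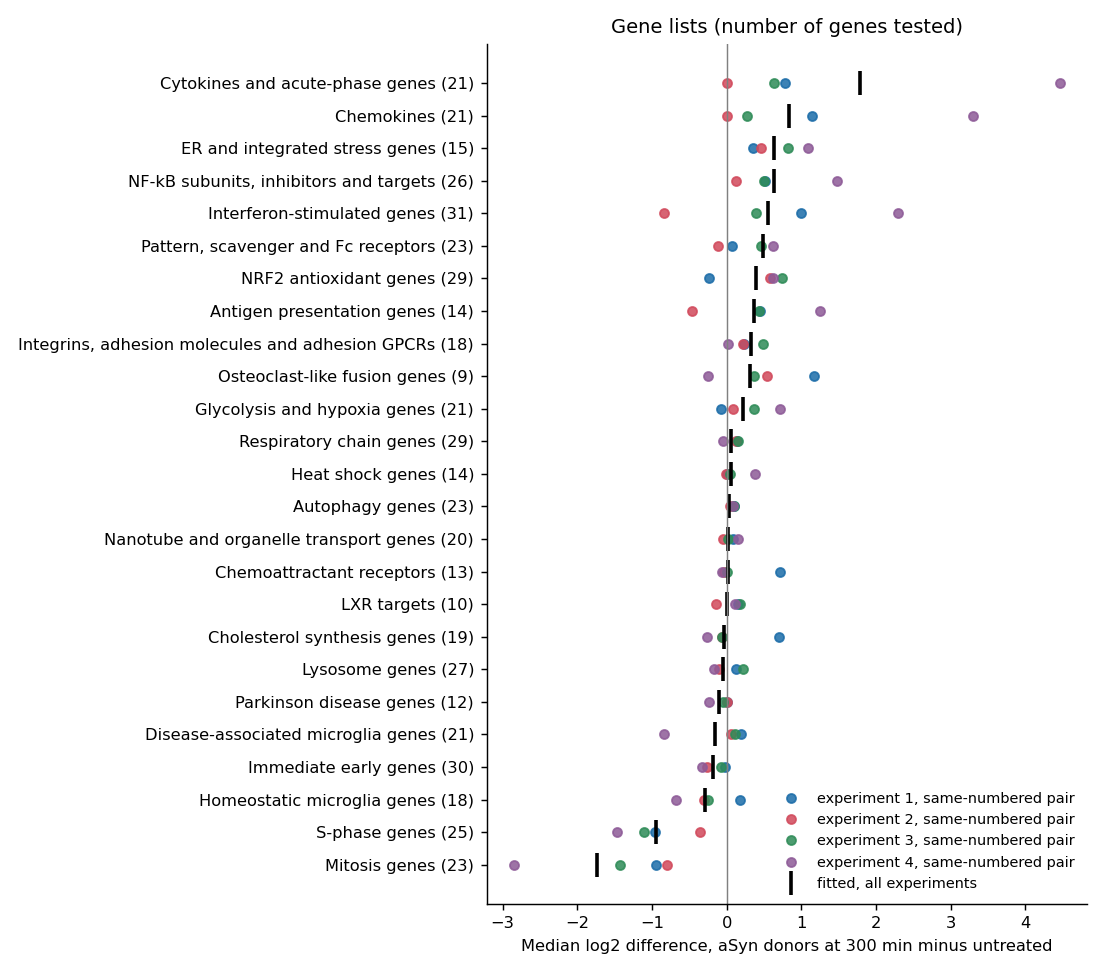
Median log2 difference between donors at 300 min and untreated units in 25 gene lists, with 1 point for each of the 4 experiments and a mark for the fitted median. Mitosis and S-phase genes lie below 0 in all 4 experiments and genes of the endoplasmic reticulum and integrated stress response above 0, while interferon-stimulated genes run from -0.84 to 2.29.

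A direct test against aSyn-only cells asked which genes differed between donors at 300 min and these loaded cells with no stated co-culture time. It called 40 of 13169 genes (0.304%), 3 higher (0.0228%) and 37 lower (0.281%) in donors at 300 min. Before adjustment, 1133 genes had a p-value under 0.05. The median log2 fold change of all genes was 0.01. In this test edgeR called 0 of the cytokine, chemokine, NF-kB, NRF2, stress, S-phase and mitosis genes, with 2, 4, 4, 6, 2, 2 and 1 of them, in that order, at an unadjusted p-value under 0.05. DESeq2 called 1 NRF2 gene and 1 S-phase gene lower. This does not show that the levels of the others were equal. Against the same untreated units, aSyn-only cells had 2524 genes called (19.2%), 1178 higher (8.95%) and 1346 lower (10.2%). The comparisons of donors and of aSyn-only cells with untreated cells share those units, so their values are only set side by side: 12 and 15 NF-kB genes were higher, 8 and 11 chemokines, 10 and 12 cytokines, 12 and 18 NRF2 genes and 10 and 11 stress genes, and 17 and 18 S-phase genes and 20 and 22 mitosis genes were lower. In the homeostatic list 2 and 3 genes were higher and 1 and 6 lower, among immediate early genes 2 and 9 were higher and 4 and 3 lower, and among lysosome genes 3 and 7 were higher and 0 and 1 lower. Glycolysis genes had 3 and 7 higher and 1 and 1 lower, nanotube and transport genes 2 and 2 higher and 1 and 4 lower, and Parkinson disease genes 0 and 2 higher and 0 and 2 lower. Without the block the direct test called 4 genes, 0 higher and 4 lower, and it called 9, 8, 10 and 116 without experiments 1, 2, 3 and 4.

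Klf2, a transcription factor that restrains inflammation in macrophages, was near the untreated level in donors at 300 min. It was at 18.9, 35.0, 18.3 and 13.9 CPM in untreated units, 202, 88.9, 126 and 108 CPM in aSyn-only cells and 33.0, 22.7, 21.3 and 8.07 CPM in donors at 300 min. Every aSyn-only library lay above all units of the other groups. Donors were lower than aSyn-only cells (log2 fold change -2.66, SE 0.35, adjusted edgeR p 2.49e-05) and did not differ from untreated cells past the threshold (-0.13, adjusted edgeR p 0.854). Klf2 was called in this test in all 11 alternative fits. Fbxo32, a ubiquitin ligase subunit controlled by FOXO factors, was at 6.66, 5.36, 4.63 and 7.92 CPM in untreated units, 22.8, 17.8, 13.7 and 20.2 CPM in aSyn-only cells and 6.77, 5.47, 5.79 and 5.09 CPM in donors (log2 fold change against aSyn-only -1.66, adjusted edgeR p 1.96e-04, and 0.114 without the block). Tsc22d3, the glucocorticoid-induced GILZ, was also lower in donors than in aSyn-only cells (log2 fold change -1.29, adjusted edgeR p 2.02e-04, and 0.644 without the block). Lhfpl2, a membrane protein gene, had a log2 fold change of -0.74 (adjusted edgeR p 1.96e-04, and 0.319 without the block). The other genes among the 10 of smallest p-value were Klf4, a factor related to Klf2, Samd8, Mtmr10 and 1700017B05Rik, at -1.74, -0.68, -0.89 and -0.73 on the log2 scale (adjusted edgeR p 0.00283, 0.00283, 0.00293 and 0.00225). None of these was called without experiment 2 (adjusted edgeR p 0.0667, 0.0820, 0.0820 and 0.0820).

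Of 30 immediate early genes, which respond to a stimulus within minutes, 2 were higher and 4 lower in donors at 300 min than in untreated cells. The share called was 20%, beside 12.4% of all genes. Jun, a subunit of AP-1, was at 119, 105, 91.9 and 142 CPM in untreated units and 63.5, 76.8, 40.3 and 62.1 CPM in donors, without overlap (log2 fold change -0.91, SE 0.19, adjusted edgeR p 0.00108). Of the same 30 genes, 5 were lower than in aSyn-only cells and 0 higher, and the median log2 fold change was -0.81. In that test 16.7% of the list was called, beside 0.304% of all genes. Leaving out experiments 1, 2, 3 and 4 gave 1, 3, 2 and 6 genes, and the fit without the block 1. Fosb, a partner of Jun in AP-1, was at 1.01, 4.80, 2.49 and 1.77 CPM in untreated units, 22.5, 12.7, 12.2 and 13.1 CPM in aSyn-only cells and 2.65, 3.19, 1.87 and 1.18 CPM in donors (log2 fold change -2.71, adjusted edgeR p 0.0172), but was not called without experiment 1 (adjusted edgeR p 0.261) or experiment 3 (adjusted edgeR p 0.323). Dusp1, a phosphatase that ends MAP kinase signalling, had a log2 fold change of -1.15 (adjusted edgeR p 0.0215) and was not called without experiment 1 (adjusted edgeR p 0.453) or experiment 3 (adjusted edgeR p 0.341). Cxcr4, the receptor for CXCL12, was at 67.5, 93.5, 47.8 and 73.5 CPM in untreated units, 163, 198, 148 and 122 CPM in aSyn-only cells and 58.9, 75.5, 83.2 and 70.6 CPM in donors (log2 fold change -1.13, adjusted edgeR p 0.00600). It was not called without experiment 1 (adjusted edgeR p 0.279) or experiment 2 (adjusted edgeR p 0.175).

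Adgre5 lay between both groups. It was at 88.5, 84.5, 82.1 and 69.4 CPM in aSyn-only cells, above every donor library at 300 min, and the donors were lower (log2 fold change -1.02, SE 0.16, adjusted edgeR p 2.58e-04, and 0.343 without the block). Wee1, a kinase that holds cells before mitosis, lay below both: it was at 16.4, 6.45, 12.5 and 13.2 CPM in untreated units, 12.9, 11.2, 11.4 and 17.5 CPM in aSyn-only cells and 7.43, 3.34, 5.16 and 3.06 CPM in donors. Its log2 fold change was -1.32 against untreated cells (adjusted edgeR p 1.82e-05) and -1.48 against aSyn-only cells (adjusted edgeR p 2.49e-05, and 0.123 with only 3 groups in the fit). The 3 genes higher than in aSyn-only cells were Bmt2, Dgkh and Ppfia4, at log2 fold changes of 0.84, 0.58 and 0.94 (adjusted edgeR p 0.00903, 0.0331 and 0.0488). These were named after their values were seen, and none of them was called without experiment 1 (adjusted edgeR p 0.189, 0.0997 and 0.450) or without experiment 2.

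The donor libraries of the earlier times place these values in order. Klf2 averaged 176 ± 79.2 CPM at 0 min (SD, n = 3), 193 ± 101 at 30 min, 52.3 ± 23.9 at 150 min and 21.3 ± 10.2 at 300 min (SD, n = 4 each). Fbxo32 averaged 24.5 ± 7.68 CPM at 30 min, 8.24 ± 1.46 at 150 min and 5.78 ± 0.718 at 300 min. At 300 min both were near the untreated level, 21.5 ± 9.24 and 6.14 ± 1.45 CPM. Adgre5 was at 95.8 ± 16.5 CPM at 30 min, 80.5 ± 15.9 at 150 min and 41.5 ± 12.9 at 300 min, well above the 3.04 ± 0.621 CPM of untreated cells at each. No test was made of these times, which serve as a description.

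**Figure D3:**
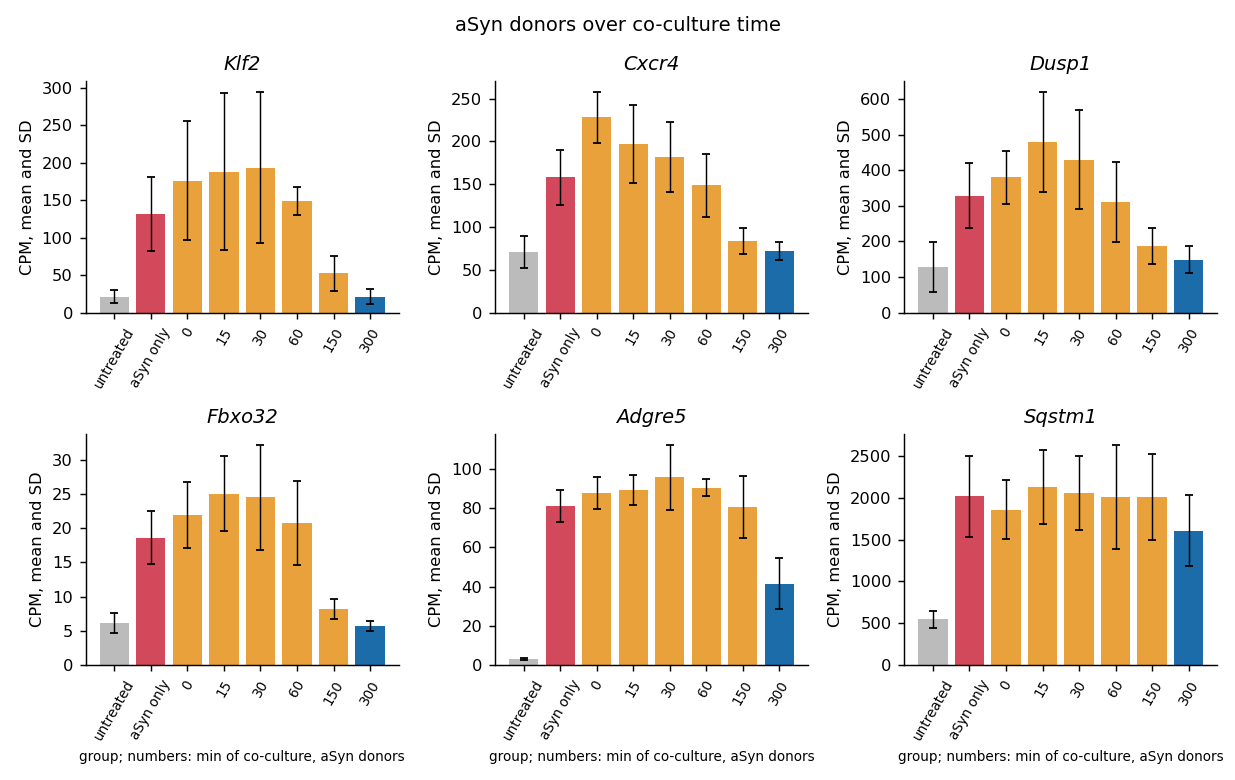
Mean level in CPM with SD bars of 6 genes in untreated units, aSyn-only libraries and donors from 0 to 300 min of co-culture, with n = 4 except for 3 donor libraries at 0 and 60 min. Klf2, Cxcr4, Dusp1 and Fbxo32 are near the untreated mean at 300 min, while Adgre5 and Sqstm1 remain above it.

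Persistence of the aSyn response as a whole was read in experiments that took no part in choosing its genes. For each experiment, the 100 higher and the 100 lower genes of smallest p-value in aSyn-only against untreated cells were taken from the other 3 experiments. In the left-out experiments 1 to 4, the higher genes had a median log2 difference between donors at 300 min and untreated units of 0.38, 0.57, 1.08 and 1.57, beside 0.96, 1.07, 1.40 and 1.79 in aSyn-only cells. The lower genes had medians of -0.36, -0.36, -0.76 and -1.32, beside -0.72, -0.62, -0.88 and -1.41. Of each 100 genes, 81, 82, 97 and 84 of the higher and 76, 88, 96 and 97 of the lower genes kept their direction in donors, beside 46.7 to 53.3% of all genes with that sign. The median of all genes lay between -0.06 and 0. Each donor median was on the side of the aSyn-only median and nearer to 0 than it, and no test was made because donors and aSyn-only cells share the untreated units.

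**Figure D4:**
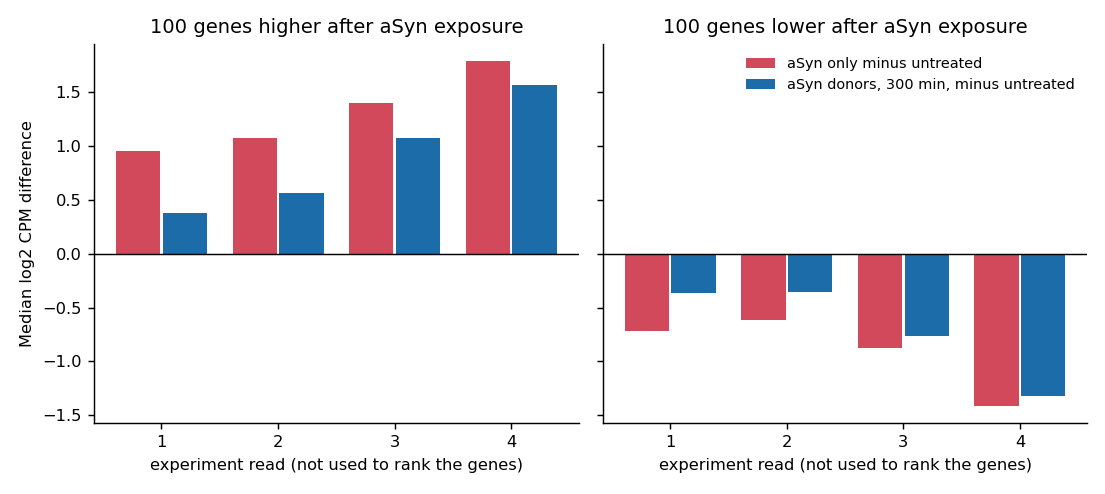
Median log2 difference from the untreated unit of the same experiment, over the 100 higher and 100 lower aSyn-response genes ranked in the other 3 experiments, for aSyn-only libraries and donors at 300 min. Donor medians lie between 0 and the aSyn-only medians in all 4 experiments in both directions.

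Some transcripts of other brain cells were lower in donors. Of 6 oligodendrocyte lineage markers, Mbp, Mog and Olig1 were called lower and 0 higher, and the sum of the 6 was 91.19 to 350.8 CPM in untreated units and 75.44 to 161.8 CPM in donors. Mbp, a protein of the myelin sheath, was at 99.0, 78.02, 186 and 64.5 CPM in untreated units, 102, 84.5, 131 and 60.5 CPM in aSyn-only cells and 72.8, 72.3, 93.3 and 54.1 CPM in donors at 300 min. It was lower in donors in each experiment, with overlap between experiments (log2 fold change -0.48, SE 0.12, adjusted edgeR p 0.00830), and was not called without experiment 1 (adjusted edgeR p 0.0612) or experiment 3 (adjusted edgeR p 0.197). Olig1 was not called without experiment 2, 3 or 4, and Mog had at most 3 counts in a donor library. The 8 astrocyte markers summed to 11.3 to 138.6 CPM in untreated units and 14.2 to 35.3 CPM in donors, with S100b called lower. In experiment 1 that sum was higher in donors, at 20.2 against 11.3 CPM, and it was lower in experiments 2 to 4. Olig1 was likewise higher in donors of experiment 1 only, at 7.43 against 4.44 CPM. The 5 neuron markers summed to 3.13 to 30.01 and 0.76 to 9.17 CPM, with Map2 called lower. The 4 fibroblast markers summed to 0.0872 to 19.5 and 0 to 13.6 CPM, with 0 called. The endothelial marker Pecam1, which myeloid cells also make, was called higher, at 0.404, 0.218, 0 and 0.566 CPM in untreated units and 0.515, 0.608, 1.69 and 3.06 CPM in donors (log2 fold change 2.18, adjusted edgeR p 0.0187), but not without experiment 3 (adjusted edgeR p 0.117) or experiment 4 (adjusted edgeR p 0.137). A pair among the largest falls is neuronal. Elavl3, an RNA-binding protein of neurons, was at 2.52, 2.05, 22.6 and 14.7 CPM in untreated units and 0.957, 0.304, 4.45 and 1.57 CPM in donors (log2 fold change -2.47, adjusted edgeR p 0.00108). Sox11, a factor of immature neurons, had a log2 fold change of -2.46 (adjusted edgeR p 0.00705) and was not called without experiment 2 (adjusted edgeR p 0.0575) or experiment 4 (adjusted edgeR p 0.0642). The untreated units of experiments 3 and 4 held most of both. The part of such cells in the other results was not tested.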

How the data were processed

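RNA of primary mouse microglia was sequenced from the 3′ end with QuantSeq forward libraries, as 50 bp single reads, per the labels' protocols. The authors deposited whole-number read counts per gene symbol for 54 libraries and 16632 genes, per the file headers. The submitters' processing notes name STAR, Partek, DESeq2 and mm10, without roles or versions, and the annotation and strand setting are not given in the sources used here. A deposited normalized table was not used.

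Untreated libraries sharing a replicate number were summed, which left 52 units in 14 groups. Same-numbered untreated libraries differed by 12.1 and 10.3 (chi-square per degree of freedom) and other pairs by 24.2 to 288. Counts were tested with edgeR 4.0.16 (R 4.3.3, limma 3.58.1): TMM scaling, a low-count filter (filterByExpr by group, at least 10 counts) and a quasi-likelihood F test over all groups with the replicate number as a block. This left 13169 genes, adjusted by Benjamini-Hochberg and called under 0.05. Standard errors came from the fold change and its F statistic. CPM are TMM-scaled, and log2 CPM used a prior count of 2. The replicate numbers come from the titles. Same-numbered deviations from the group means correlated at r = 0.273, 0.504, 0.476 and 0.267 in experiments 1 to 4 for donors at 300 min and untreated units, so the numbers were taken to pair the samples. The scripts were tested on simulated data.

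The members of the comparison and all gene lists were chosen with earlier results of these data known. Named genes were the 10 largest rises and 10 largest falls among called genes that moved in 1 direction in all 4 experiments at a mean of at least 10 CPM in the higher group, up to 4 called genes of smallest p-value per list, the 10 genes of smallest p-value against aSyn-only cells, and Adgre5, Klf2 and Cxcr4. A few genes that the rule or the lists held are not reported here and were left out of the list and marker counts, after their values were known. Those that lost the call when an experiment was left out are given more briefly. Chosen after their values were seen were Ptgs2, Il1b, Il1rn, Mki67, Fosb, Dusp1, Bmt2, Dgkh, Ppfia4, Mog and Olig1 and, as uncalled members, Tnf, Nfkbia, Tnfaip3, Hmox1, Cx3cr1, P2ry12, Csf1r, Apoe, Trem2, Isg15, Lrrk2, Lamp1 and Tfeb, as well as Ccl4, Ddx39, Mbp, Pecam1, S100b and Map2. Gene positions are from GENCODE (GRCm38) and promoters from RefSeq (GRCm38.p6). No molecular identifiers are stated, so floors of 3 counts, 0.113 to 0.303 CPM, cover counting error only. The alternatives were DESeq2 1.42.0, other scaling and filters, a fit without the block, a fit of 3 groups and leaving out each experiment.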

Additional observations from a re-analysis of the deposited data

Results flagged for a closer look

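In 273 sets of 4 values (a gene in 1 group, or a list over 4 experiments), 17 had a highest or lowest value set far apart from the other 3. About 1 in 20 such sets does so by chance. Experiment 4 gave 9 of the 17. Its donors were highest for Il6 at 16.61 CPM and Tax1bp1 at 255.5 CPM, and lowest for C5ar1 at 180.4 CPM, Ch25h at 5.327 CPM and Lamp1 at 1111 CPM. Its untreated unit was highest for Il6 at 0.0754 CPM and Tax1bp1 at 156.6 CPM. That Il6 value is 2 counts, under the floor of 3, with the other untreated units at 0. In the same experiment the median log2 difference between donors at 300 min and untreated units was lowest for disease-associated microglia genes at -0.8457 and highest for heat shock genes at 0.3808.

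The untreated unit of experiment 2 was lowest for Rrm2 at 4.536 CPM, Mcm2 at 9.551 CPM and Ulk2 at 47.1 CPM, and highest for Ddit3 at 315.8 CPM and Ptgs2 at 4.928 CPM. The untreated level of these replication genes was thus low before any aSyn in that experiment. Donors of experiment 3 were highest for Tmem119 at 10.68 CPM. Donors of experiment 1 were highest for Ccna2 at 18.1 CPM, and the median log2 difference of the chemoattractant receptors was highest there at 0.7118.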

How the results depend on the processing

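Under size factors of relative log expression, no filter on low counts, 1 untreated library per pair, or Rn45s left out, all counts of called genes stayed within 1.5 times of those reported. Of the 1628 genes called against untreated cells, 2 changed sign without experiment 4, and 0 did so in each of the other alternatives. Without the replicate block the same test called 114 genes in donors at 300 min against untreated cells (81 higher, 33 lower), 4 against aSyn-only cells (0 higher, 4 lower) and 329 in aSyn-only against untreated cells (211 higher, 118 lower). Of the 1628 genes, 1205 still had an unadjusted p-value under 0.05 without the block, and 0 changed sign. With only 3 groups in the fit and the block kept, the counts were 349 (202 higher, 147 lower), 9 (0 higher, 9 lower) and 1056 (563 higher, 493 lower). DESeq2 called 1831 genes against untreated cells and 78 against aSyn-only cells (11 higher, 67 lower). Leaving out 1 experiment gave 589 to 1292 genes against untreated cells (309 to 759 higher, 280 to 688 lower), 8 to 116 against aSyn-only cells (0 to 13 higher, 8 to 103 lower) and 1380 to 2101 in aSyn-only against untreated cells (721 to 1041 higher, 659 to 1086 lower). Fewer samples enter each of those fits, and beyond that the cause was not tested. The median log2 fold change of the autophagy genes, 0.0359, ran from 0.0290 to 0.1158 when 1 experiment was left out. All values rest on 4 experiments, and genes under 3 counts in a group have no measured fold change.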
